A study of Mus musculus with 380 samples.

Results

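The data set out below compare CD4 and CD8 T cells taken from B16F10 melanomas, a transplantable mouse tumour, in wild-type (WT) C57BL/6 mice. The members are the single cells of the plate titled WT4_CD4 and of the plate titled WT4_CD8 that had at least 1000 genes above an FPKM of 1 (a read measure corrected for transcript length and library size). This kept 79 of 94 CD4 cells and 72 of 94 CD8 cells, so 49.7% of the kept cells in a series of 380 libraries. Each plate also gave 1 population well, a library whose number of input cells the labels do not state, and these 2 wells served as a second view. The libraries were made by Smart-seq2, which amplifies full-length cDNA from 1 cell per well. The other 2 plates came from C57BL/6 tumour-bearing mice with the genotype IL27raKO, labelled as lacking a chain of the interleukin-27 receptor, and kept 73 CD4 and 80 CD8 cells. They are called KO-labelled here and enter only as values beside the WT ones. Il27ra transcripts were detected in 47.9% of their CD4 cells and 61.3% of their CD8 cells, against 43.04% and 65.3% in WT, so the RNA does not bear the label out. The gene-level values do not show which part of the transcript was read. No label names a treatment of the mice, their age, a time after tumour injection or an animal, and the code WT4 has no stated meaning. The protocol text speaks of CD8+ cells only, so the lineage comes from the titles. The CD4 titles carry p2 and the CD8 titles p1, with no stated meaning, so lineage, plate and this code cannot be told apart. Each lineage is thus 1 sample, no test between lineages was possible, and the intervals given cover the counting of cells only.

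CD4 T cells recognise peptide on MHC class II, and the CD4 protein binds that molecule as a coreceptor. They act largely by helping other cells, through cytokines and surface ligands such as CD40 ligand, and a subset that carries the transcription factor Foxp3 restrains immune responses. CD8 T cells recognise peptide on MHC class I through the CD8 alpha and beta chains, and kill target cells with perforin and granzymes released from granules. In the thymus, ThPOK (Zbtb7b) favours the CD4 fate and Runx3 the CD8 fate. In tumours, CD8 cells under prolonged stimulation are known to carry inhibitory receptors such as PD-1, Lag3 and Tim-3.

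The stretches of 250 bases directly upstream of the RefSeq start of Cd8a and of the cytotoxic granule genes Prf1 (perforin) and Nkg7 are shown, because these genes were among those most clearly higher in the CD8 cells. They are from GRCm38.p6, the mm10 assembly, each on the + strand: chr6:71373177-71373426 for Cd8a, chr10:61297586-61297835 for Prf1 and chr7:43436888-43437137 for Nkg7. Capitals mark matches, on either strand, to TGNGGT (the core read by RUNX factors) or AGGTGTGA (a T-box site).
Cd8a: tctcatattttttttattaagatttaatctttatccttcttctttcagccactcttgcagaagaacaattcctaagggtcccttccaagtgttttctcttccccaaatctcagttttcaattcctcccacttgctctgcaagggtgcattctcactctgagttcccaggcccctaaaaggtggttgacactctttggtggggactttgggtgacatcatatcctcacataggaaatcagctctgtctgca
Prf1: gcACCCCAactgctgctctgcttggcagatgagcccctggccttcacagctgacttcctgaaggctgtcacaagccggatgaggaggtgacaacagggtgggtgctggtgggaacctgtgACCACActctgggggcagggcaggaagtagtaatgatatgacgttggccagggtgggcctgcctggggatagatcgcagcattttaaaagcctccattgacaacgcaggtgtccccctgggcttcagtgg
Nkg7: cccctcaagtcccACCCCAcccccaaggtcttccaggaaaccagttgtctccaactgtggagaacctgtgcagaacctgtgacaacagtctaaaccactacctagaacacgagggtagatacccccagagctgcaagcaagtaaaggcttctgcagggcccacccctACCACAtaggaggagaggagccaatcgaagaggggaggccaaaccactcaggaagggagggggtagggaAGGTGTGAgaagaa
The Prf1 stretch held 2 RUNX matches, that of Nkg7 held 2 RUNX matches and 1 T-box match, and that of Cd8a held 0 of either. RUNX matches are common: 39.6% of the 22862 symbols with a single RefSeq promoter row held 1 within 250 bases, against 1.15% for the T-box site. Over the compared genes defined below, the shares were 37.6% and 0.632% of the 3957 with such a row. Over the genes higher in the CD8 cells in every view below, 42.3% of the 52 with such a row held the RUNX letters. The T-box letters were in 3.85% of them, which is 2 genes. Over the genes higher in the CD4 cells in every view, the RUNX and T-box shares were 50% and 2% of 50, the latter 1 gene. These matches describe the letters and are not binding sites.

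The plates differed in how many genes a cell showed. CD4 cells had 1023 to 6578 genes above FPKM 1 (median 2045), and CD8 cells 1056 to 7014 (median 3167.5). More than 4000 genes were seen in 4 CD4 cells (5.06%) and in 26 CD8 cells (36.1%). The wells were closer, with 10450 genes for CD4 and 10946 for CD8. The lowest summed FPKM of a kept cell was 205202 on the CD4 plate (median 665757) and 33551 on the CD8 plate (median 987249). Kept CD8 cells with such low sums enter every all-cell difference below. A view in which 36 CD4 and 36 CD8 cells were paired to within 10% on genes detected had medians of 2200.5 and 2429.5 genes. Its lowest summed FPKM was 205202 for CD4 and 71743 for CD8, so CD8 cells with low sums enter the matched differences too. Matching also changed which cells were compared. Foxp3 was detected in 44.4% of matched CD4 cells against 34.2% of all. Cells with at least 3 of 7 cycling genes were 19.4% of both matched groups, against 8.86% of all CD4 and 41.7% of all CD8 cells. Both wells carried transcripts of other cell types. In the CD8 well 13 of 13 macrophage and monocyte markers were above FPKM 1, with a summed FPKM of 2587 against 103.9 in the CD4 well. Dendritic markers summed to 9319 against 209.1, NK markers to 1082 against 60.95 and erythroid markers to 4767 against 4.54. The CD4 well was the higher for melanoma markers (176.8 against 69.9), fibroblast and endothelial markers (96.1 against 7.59) and B cell markers (28.9 against 10.2). Among single cells, 3 or more markers of 1 other cell type were seen in 4 of 79 CD4 cells and 17 of 72 CD8 cells. In the CD4 group these were macrophage markers in all 4, with a summed FPKM of up to 175722 and up to all 13 markers in a cell, and the dendritic sum reached 153840. In the CD8 group the highest sums were 579 for macrophage and 7672 for dendritic markers, and dendritic markers were seen in 7 cells, melanoma markers in 6 and NK markers in 5. Of the cells with 3 or more, 3 CD4 cells and all 17 CD8 cells also had a CD3 chain above FPKM 1, and 14 of the 17 had Cd8a. The NK list includes Eomes and the dendritic list Xcr1, detected in 48.6% and 51.4% of all kept CD8 cells. Whether the 17 hold transcripts of another cell type was not tested. Counts are given below without the cells that had 3 or more markers, and without the wells.

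Both plates held cells of their labelled lineage. The coreceptor genes Cd4 (chr6:124864692-124888221, - strand), Cd8a (chr6:71373427-71379173, + strand) and Cd8b1 (chr6:71322788-71337494, + strand) lie on 1 chromosome of mm10, the last 2 as neighbours. Cd4 was at 0 to 1566 FPKM over the CD4 cells, with a median of 290, and at 0 to 362.4 over the CD8 cells, with a median of 0. It was detected in 89.9% of CD4 cells (95% exact interval 81.02 to 95.53) and 5.56% of CD8 cells (1.53 to 13.6). Its mean FPKM was 407 against 5.17, and the wells listed 700 and 0. Cd8a ran the other way, with a median of 0 in CD4 cells (highest 30.3) and of 405 in CD8 cells (0 to 2219). It was detected in 5.06% and 84.7% of cells, and the wells listed 0 and 838 FPKM. On the scale of mean log2(FPKM + 1), used for every difference here as CD4 minus CD8, Cd4 differed by 7.04 and Cd8a by -6.83. A cell at 0 counts as 0 on this scale, so a difference combines how many cells carried a gene with how much they carried, and is not the ratio of mean FPKM.

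Cd8b1 was less sharply divided. It was above FPKM 1 in 30.4% of CD4 cells and 88.9% of CD8 cells, but its median in the positive cells was 2.65 FPKM in the CD4 group and 995 in the CD8 group. Above FPKM 10 the shares were 10.1% and 76.4%. The CD4 well listed 26.2 FPKM and the CD8 well 1631. Cells with Cd4 and without Cd8a made up 67 of the 79 CD4 cells, and cells with Cd8a and without Cd4 59 of the 72 CD8 cells. Both genes were detected in 4 CD4 cells and 2 CD8 cells, and neither in 8 and 9. At least 1 CD3 chain was above FPKM 1 in 78 of 79 and 72 of 72 cells. Coreceptor dropout and cells of the other lineage cannot be told apart in single cells with neither or both genes.

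**Figure D1:**
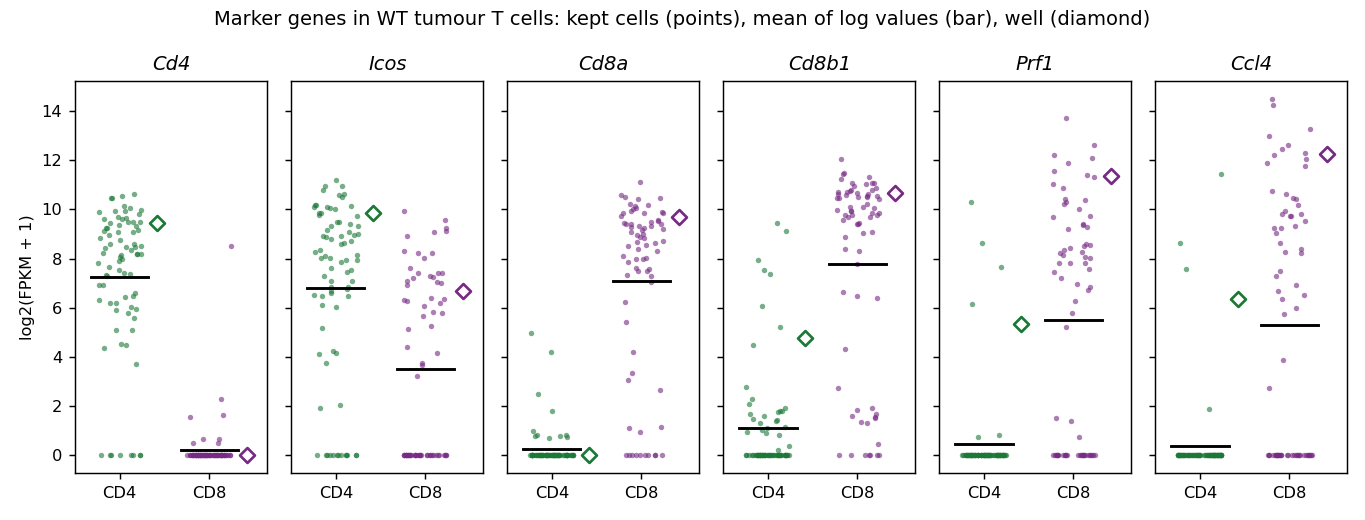
The 6 marker genes in each kept WT cell, as log2(FPKM + 1) on the vertical axis, with CD4 cells in green and CD8 cells in purple. Bars are means of the log values over 79 and 72 cells and diamonds are the single wells. Most Cd4 points of the CD8 plate and most Cd8a points of the CD4 plate lie at 0, whereas Icos values of the lineages overlap.

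Over all genes, the counts past a 2-fold difference (1 on the log2 scale) differed between the views. Of 6524 genes detected in at least 20% of the cells of either lineage, 2.16% were past the fold with CD4 higher and 37.2% (2426 genes) with CD8 higher, around a median of -0.76. In the matched cells the median was -0.01, with 620 genes (9.5%) higher in CD4 and 447 (6.85%) in CD8. In the wells the median was 0.05, with 672 (10.3%) and 635 (9.73%). Of the 2426 genes higher in CD8 cells, 15.99% were past the fold in the same direction in the matched cells and 12.6% in the wells. Of those higher in CD4 cells, 80.9% and 66.7% were. The matched cells are part of the kept cells, so the matched shares are no separate check. Gene number, cell cycle and lineage move together on these plates, and their parts in the 2426 genes cannot be told apart.

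Past the fold in one direction in all kept cells, matched cells and wells were 83 genes with CD4 higher (1.27% of 6524) and 92 with CD8 higher (1.41%). The text leads with these. Without the cells that held markers of another type the shares were 1.41% and 1.77% of 6602 genes, and 77 and 80 of the genes were shared with the first sets. On the all-cell and matched views without the wells they were 1.75% and 5.95%.

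**Figure D2:**
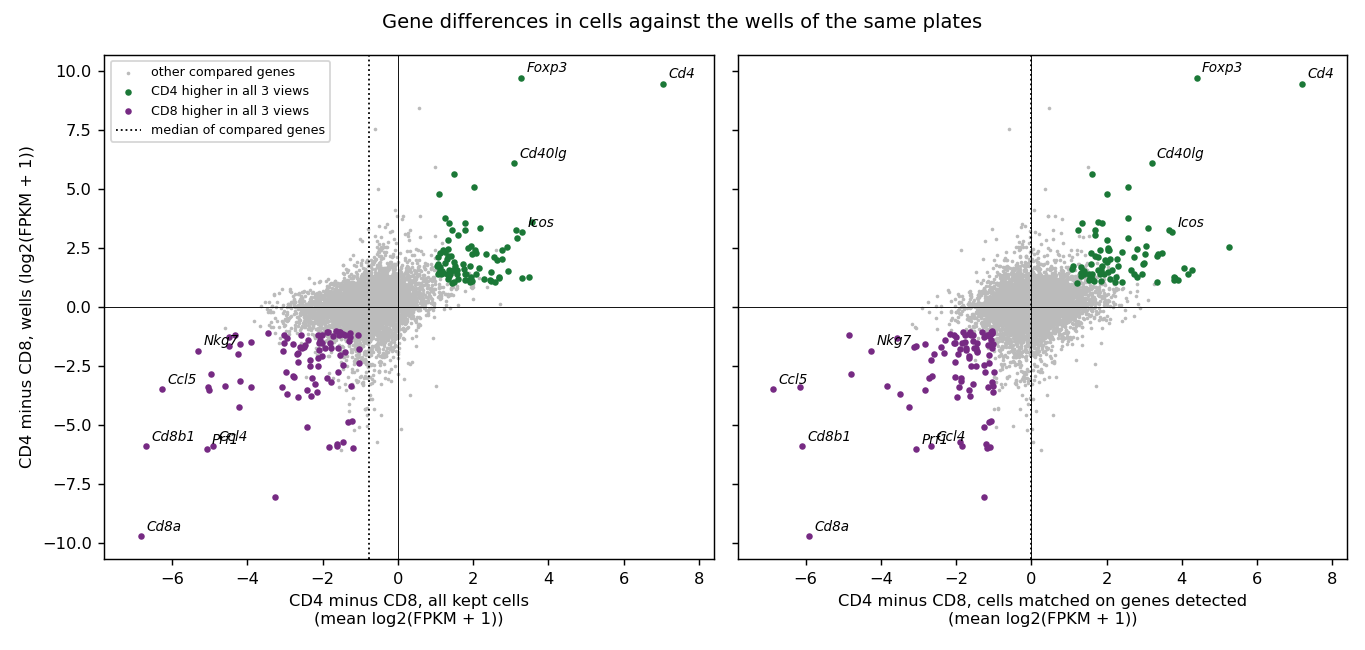
Each point is 1 of 6524 compared genes, with its CD4 minus CD8 difference in the cells on the horizontal axis (left panel all kept cells, right panel matched cells) and in the wells on the vertical axis, both on the log2(FPKM + 1) scale. Green and purple mark the 83 and 92 genes past the fold in all 3 views. The dotted median sits at -0.76 on the left and -0.01 on the right.

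The killing apparatus was a leading difference on the CD8 side. Of 21 listed genes of cytotoxic granules and death ligands 15 were measured (detected in at least 10% of cells of either lineage, which 8790 genes were). Of these, 11 were past the fold with CD8 higher and 0 with CD4 higher, where 27.8% and 1.71% of the 8790 were, and 8 were higher in CD8 in all 3 views, where 1.05% were (1.01% toward CD4). In matched cells 5.23% of the 8790 were past the fold toward CD8 and 8.01% toward CD4, and in the wells 12.2% and 13%. Prf1, Gzmk and Gzma reached 10% of cells only in CD8, so their direction was largely set by that filter. The median of the 15 was -2.61 in all cells, -1.98 in matched cells and -1.36 in the wells, beside -0.56, 0.00 and 0.05 over the 8790 genes. Prf1, which encodes the pore former perforin, was at 0 to 1261 FPKM over the CD4 cells and at 0 to 13673 over the CD8 cells, with medians of 0 and 161.6. It was detected in 5.06% of CD4 cells (1.40 to 12.5) and 62.5% of CD8 cells (50.3 to 73.6), and the wells listed 38.9 and 2612 FPKM. Its difference was -5.08, and -3.07 in matched cells. Nkg7, a granule membrane protein, differed by -5.32 and -4.27, but 45.6% of CD4 cells carried it as well, at a median of 1020 FPKM in the positive cells against 4074 in positive CD8 cells. Gzmb, the protease granzyme B, was detected in 25.3% of CD4 cells and 70.8% of CD8 cells, with mean FPKM of 753 and 1763. Its highest single value, 21682 FPKM, was in a CD4 cell. The difference was -5.01 in all cells, -2.83 in matched cells and -3.52 in the wells. Among CD4 cells, Gzmb was detected in 55.6% of those with Foxp3 and 9.62% of those without. Prf1 was in 14.8% of those with Foxp3 and in 0 of the 52 without, which allows up to 5.77%. Srgn, the proteoglycan that packs granule proteins, did not follow Prf1, Nkg7 and Gzmb. It was detected in 82.3% and 81.9% of cells, with a difference of 0.39. Lamp1, a lysosome membrane protein, was at 0.50 in cells and -1.24 in the wells.

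Counted per cell, 4 of the 21 cytotoxic genes were detected in the median CD4 cell (0 to 10) and 10 in the median CD8 cell (1 to 15). In the matched cells the medians were 4.5 and 8. The ranges overlap, and CD8 cells with few genes overall also had few cytotoxic ones.

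**Figure D3:**
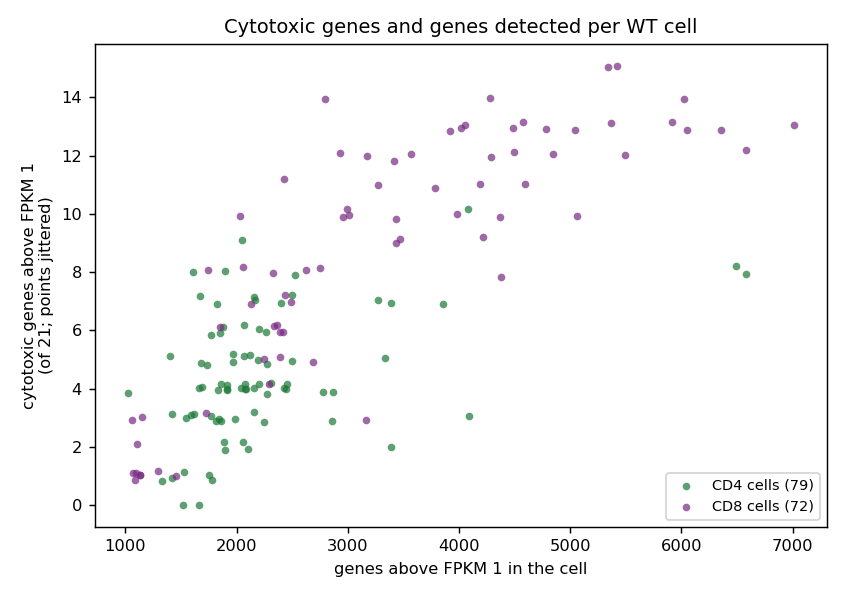
Each point is 1 kept WT cell, with the number of genes above FPKM 1 on the horizontal axis and the number of the 21 listed cytotoxic genes above FPKM 1 on the vertical axis. CD8 cells (purple) reach 15 such genes and CD4 cells (green) 10, and both counts are low in cells with few genes.

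Killer lectin receptors, which NK cells and activated CD8 cells share, were seldom detected in the CD4 cells, apart from Klrg1. Klrd1 (CD94) was detected in 2.53% of CD4 cells (0.308 to 8.85) and 63.9% of CD8 cells (51.7 to 74.9), with well values of 48.35 and 356.8 FPKM and a difference of -4.97. Its inhibitory partner Klrc1 (NKG2A) was detected in 2.53% and 56.9%, with a difference of -4.59. The activating receptor Klrk1 (NKG2D) was at 7.59% and 48.6%. Klrg1 was detected in 22.8% and 26.4% of cells and differed by 0.00. Among CD4 cells it was detected in 66.7% of those with Foxp3 and in 0 of the 52 without, which allows up to 5.77%. With only the CD4 cells without detected Foxp3, Klrg1 was at -2.02, beside a median of -0.97 over 6476 compared genes. Of 6 measured members 5 were past the fold and 4 were so in all 3 views, all with CD8 higher. Klrd1, Klrc1, Klrk1, Klrc2 and Klre1 reached 10% of cells only in CD8. The direction of these counts was thus largely set by that filter. Toward CD8, 27.8% of the 8790 genes were past the fold in all cells and 1.05% in all views. At least 3 of the 11 listed receptors were seen in 1 of 79 CD4 cells and 40 of 72 CD8 cells (55.6%), and in 0 of 36 and 17 of 36 (47.2%) of the matched cells. Reads of Klrc1 and Klrc2 may be split between them, since 16.8% of the 31-base words of Klrc2 transcripts occur in Klrc1. The NK markers Ncr1, Klrb1c, Klra4, Klra7, Klra8, Klra9 and Gzma were at 0 in every CD4 cell, while 5 of 72 CD8 cells (6.94%) had 3 or more of the 10 NK markers. The 10 include Eomes and Gzma, detected in 48.6% and 11.1% of CD8 cells and also listed here as CD8 lineage and cytotoxic genes. Summed over the 10, the FPKM was 0 to 12925 in CD4 cells (median 0) and 0 to 5783 in CD8 cells (median 15.4). The highest CD4 sum was nearly all from the listed markers Tyrobp and Fcer1g, since Eomes reached only 2.28 FPKM in CD4 cells. Whether it came from a cell with macrophage markers was not tested. The part of NK transcripts in the CD8 well in the killer lectin differences was not tested.

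The inflammatory chemokines Ccl3, Ccl4 and Ccl5 were higher in the CD8 cells as well. Ccl5 had a median of 0 FPKM in CD4 cells (highest 6745) and 4849 in CD8 cells (highest 48969). It was detected in 43.04% of CD4 cells and 84.7% of CD8 cells, and differed by -6.28 in all cells, -6.88 in matched cells and -3.49 in the wells. Ccl4 was detected in 5.06% and 55.6% of cells, with mean FPKM of 42.5 and 1545, medians of 0 and 71.7 and well values of 80.7 and 4842. Its difference was -4.92, and -2.67 in matched cells. Ccl3 was at 5.06% and 40.3%. Xcl1, a ligand for cross-presenting dendritic cells, was detected in 0 of 79 CD4 cells, so at most 3.80% by the 3-cell limit, and in 12.5% of CD8 cells. Among cytokines, Ifng (interferon gamma) was detected in 13.9% of CD4 and 34.7% of CD8 cells, with a difference of -1.80 in all cells, -2.03 in matched cells and -1.52 in the wells. The other 8 measured cytokines were not past the fold toward CD8. Ltb (lymphotoxin beta) differed by 1.96 in all cells and 0.64 in matched cells. Ebi3, a subunit of IL-27 and IL-35, was detected in 12.7% of CD4 cells and 0 of 72 CD8 cells, which allows up to 4.17%. Csf1 had a difference of -0.45.

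Genes of homing and adhesion were found on both sides. Cxcr6, a receptor of tissue-resident T cells, was detected in 26.6% of CD4 and 69.4% of CD8 cells and differed by -4.49. Ly6c2, a surface protein of activated CD8 cells, was at 15.2% and 63.9%, with a difference of -5.06 and of -6.16 in matched cells. It shares 21.4% of its 31-base transcript words with Ly6c1, so the split of reads between them is uncertain. Cxcr3, which follows interferon-induced chemokines, was higher in CD4 cells by 2.70 (62.03% and 37.5% of cells), and Ccr7, which guides cells to lymph nodes, by 1.88. In matched cells Ccr7 was at 0.95. Between the KO-labelled plates both turned, with Cxcr3 at -0.41 and Ccr7 at -1.86. Of 10 measured chemokine receptors, 5 were past the fold toward CD4 and 3 toward CD8 in all cells, where 1.71% and 27.8% of the 8790 genes were, so the CD8 count is near the background. In matched cells the counts were 4 and 1. The integrin chain Itgb7 was detected in 59.5% of CD4 and 27.8% of CD8 cells, with a difference of 3.17, and Itga4, its partner in the gut-homing integrin, was the opposite, at 49.4% and 87.5% and -2.12. Itgae, the CD103 chain often used to mark resident CD8 cells, was higher in the CD4 cells here by 1.15 (16.5% and 4.17%), and was at 3.60 in the wells. Detection was at 40.7% in the CD4 cells with Foxp3 and 3.85% in those without. When only the latter were used, Itgae differed by 0.18, beside a median of -0.97 over 6476 compared genes. Emb, an adhesion molecule, differed by 2.78, and by -0.89 between the KO-labelled plates.

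Helper and co-stimulatory molecules were among the genes higher in the CD4 cells. Icos, an inducible co-stimulatory receptor, was at 0 to 2385 FPKM over the CD4 cells (median 257.6) and at 0 to 982 over the CD8 cells (median 10.04). It was detected in 83.5% of CD4 cells (73.5 to 90.9) and 51.4% of CD8 cells (39.3 to 63.4). The wells listed 922 and 101.2 FPKM, and the difference was 3.30, with 3.75 in matched cells. The ranges overlap, and both plates had cells at 0. Cd40lg, the helper ligand for CD40, was detected in 44.3% of CD4 cells (33.1 to 55.9) and in 1 of 72 CD8 cells (1.39%, 0.0352 to 7.497) at 5.46 FPKM, and the wells listed 66.99 and 0. Its difference was 3.09. Tnfrsf4 (OX40) was detected in 51.9% and 26.4% of cells, with mean FPKM of 924 and 207.6, and differed by 2.90, and by 5.24 in matched cells. Of 16 measured co-stimulatory receptors, 5 were past the fold toward CD4 and 2 toward CD8, and 4 and 0 were so in all 3 views. Over the 8790 genes the shares were 1.71% and 27.8%, and 1.01% and 1.05% in all views. The median of the 16 was 0.59 in all cells and 1.29 in matched cells. It was -0.19 with only the CD4 cells without detected Foxp3, where the median over 6476 compared genes was -0.97. The 2 lowest, Cd48 (-2.34) and Cd27 (-2.16), were at -0.65 and -1.02 in matched cells, and Cd48 was at 0.79 between the KO-labelled plates.

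Il7r, the receptor for the survival cytokine IL-7, stood second to Cd4 among genes higher in CD4 cells. It was at 0 to 1600 FPKM over the CD4 cells (median 30.8) and 0 to 867.5 over the CD8 cells (median 0), in 60.8% and 13.9% of cells, with 444 and 35.9 FPKM in the wells. The difference was 3.57, but 1.78 in matched cells and 0.47 between the KO-labelled plates. Of 23 measured interleukin receptors, 6 were past the fold toward CD4 and 4 toward CD8 in all cells, and 3 and 0 in all views. Over the 8790 genes the shares were 1.71% and 27.8%, and 1.01% and 1.05% in all views. The CD8 count is thus not above the background. Ifngr1, a chain of the interferon gamma receptor, differed by 1.53. Il2rb, the IL-2 and IL-15 receptor beta chain, was lower in CD4 by 1.48, but was at -0.90 in matched cells and -0.34 in the wells. Il10ra was lower by 2.25, but was at 0.01 in matched cells and 1.55 between the KO-labelled plates. Il27ra, the gene that the KO label names, differed by -1.22 in all cells, -0.39 in matched cells and 0.63 in the wells.

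Foxp3 (chrX:7573644-7595245, + strand), which sets the regulatory T cell programme, was found in 27 of 79 CD4 cells (34.2%, 23.9 to 45.7) at a median of 917 FPKM. It was detected in 0 of 72 CD8 cells, and the limit that 3 cells set is 4.17%. The wells listed 840.5 and 0 FPKM. Of 22 listed genes of regulatory T cells, 19 were measured. Of these, 10 were past the fold toward CD4 in all cells and again in all views, and 0 toward CD8. Toward CD4, 1.71% of the 8790 genes were past the fold in all cells and 1.01% in all views. Foxp3, Socs2, Lrrc32, Ebi3, Swap70, Ikzf4 and Itgb8 reached 10% of cells only in CD4, so their direction was largely set by that filter. Folr4, a surface protein of regulatory T cells, was at 2.19, and Il2ra (CD25) was detected in 31.6% and 12.5% of cells with a difference of 1.34. Foxo1 and Tnfrsf9 had the lowest values of the list, 0.11 and -0.61, and Tnfrsf9 was at 2.82 in matched cells. The median of the list was 1.23, and 1.70 in matched cells, where 44.4% of CD4 cells had Foxp3. When the 52 CD4 cells without detected Foxp3 were set against the CD8 cells, the median was -0.23. Over the 6476 genes compared in that setting the median was -0.97, so the value of the list lies above that background. Tnfrsf4 then differed by 0.29, while Cd40lg was at 4.41 against 3.09 with all CD4 cells, being detected in 61.5% of the cells without and 11.1% of those with Foxp3. Of the 83 genes, 43 were past the fold in that comparison, and 91 of the 92 on the CD8 side were. The cells are part of those in which the genes were chosen, and the 52 had a median of 1891 genes. The count on the CD8 side was thus largely set beforehand.

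Immediate-early and interferon-induced genes were higher in the CD4 cells. Zfp36, an mRNA-destabilising protein induced by stimulation, was at 0 to 2665 FPKM (median 152.03) over the CD4 cells and 0 to 578 (median 0) over the CD8 cells, with a difference of 3.48 in all cells, 3.78 in matched cells and 1.28 in the wells. Junb, an AP-1 subunit, was detected in 96.2% and 77.8% of cells, with medians of 1902 and 526 FPKM and a difference of 3.29. Over the 8790 genes, 1.71% were past the fold toward CD4 and 27.8% toward CD8, and 1.01% and 1.05% in all views. Of 24 measured immediate-early genes, 10 were past the fold toward CD4 and 3 toward CD8, and 7 and 1 were so in all views. The exception was Nr4a2, a nuclear receptor induced by T cell receptor signals, detected in 2.53% of CD4 and 50% of CD8 cells with a difference of -2.98. Myc was also lower in CD4, by 1.93, and was at -1.20 in matched cells and -0.24 in the wells. Nfkbiz, an inducible regulator of NF-kB, stood outside that list and differed by 2.76. Tissue dissociation is known to induce such genes, and the labels do not say how long it took for either plate.

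Of 38 measured interferon-stimulated genes, 12 were past the fold toward CD4 and 0 toward CD8 in all cells, and 10 were so in all views. Over the 8790 genes the shares in all cells were 1.71% and 27.8%, and 1.01% were toward CD4 in all views. The median of the list was 0.50 in all cells, 1.18 in matched cells, 0.86 in the wells and 0.74 between the KO-labelled plates. Igtp, an interferon-inducible GTPase, was detected in 53.2% and 37.5% of cells and differed by 1.98. Ly6a (Sca-1) differed by 1.93, although 69.6% of CD4 and 72.2% of CD8 cells carried it. With only the CD4 cells without detected Foxp3, Igtp was at 0.55, Ly6a at 0.61 and the median of the list at 0.32. The median over the 6476 genes compared in that setting was -0.97. The lowest 2 members were Mx1 (-0.48) and Ifi35 (-0.45). The median cell of either lineage had 14 of the 42 listed genes detected, and in matched cells the medians were 16 and 12. Among 19 MHC class I and peptide-loading genes, 0 were past the fold in all views. H2-K1 was higher in CD4 by 1.94 and B2m by 1.39, with 0.84 and 0.49 in the wells. The medians of B2m were close, at 7240 FPKM in CD4 cells and 7082 in CD8 cells. It was detected in 98.7% and 90.3% of cells, so CD8 cells at 0 enter its difference. The peptide-loading chaperone Calr was lower by 1.75, but was at -0.84 in matched cells and -0.04 in the wells. The median of the 19 turned from -0.23 in all cells to 0.49 in matched cells, and was 0.04 in the wells.

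Inhibitory receptors were not on one side. Pdcd1 (PD-1) was detected in 31.6% of CD4 cells and 69.4% of CD8 cells, with medians of 0 and 976 FPKM. Its difference was -4.48 in all cells, -2.002 in matched cells, -1.25 in the wells and -0.01 between the KO-labelled plates. Lag3, which binds MHC class II, was at 21.5% and 70.8% of cells, with differences of -4.59, -3.07 and -0.89. Ctla4 was the reverse, in 65.8% and 56.9% of cells, at 1.32 in all cells, 3.33 in matched cells and 2.16 in the wells. With only the CD4 cells without detected Foxp3 set against the CD8 cells, the Ctla4 difference was -0.76. The median over the 6476 genes compared in that setting was -0.97. Nt5e (CD73), an enzyme that makes adenosine, was at 22.8% and 4.17% and differed by 1.48, or by 0.36 with only the CD4 cells without detected Foxp3. Havcr2 (Tim-3) was detected in 13.9% and 62.5% of cells, with a difference of -3.90, of -1.93 in matched cells and of 0.18 between the KO-labelled plates. Of 18 measured members 2 were past the fold toward CD4 and 9 toward CD8 in all cells, and 2 and 4 were so in all views. Over the 8790 genes the shares were 1.71% and 27.8%, and 1.01% and 1.05% in all views. The median of the 18 receptor genes was -1.09, but -0.15 in matched cells. These genes overlapped between lineages in every case, since each had cells at 0 on both plates.

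Among transcription factors, Runx3 was detected in 29.1% of CD4 and 80.6% of CD8 cells and differed by -3.15, with -3.09 in matched cells and -0.85 in the wells. Zbtb7b was detected in 25.3% and 5.56%, with differences of 0.99, 1.70 and 2.09. Eomes, a T-box factor of effector and memory CD8 cells, was in 1.27% and 48.6% of cells with a difference of -2.42. Gata3 and Rora were higher in CD4 cells by 2.09 and 2.34. Hif1a, a sensor of low oxygen, led the list of effector and dysfunction factors at 1.79, followed by Nr4a1 at 1.33. With only the CD4 cells without detected Foxp3, Gata3 was at 0.99, Hif1a at 0.65 and Nr4a1 at 0.75. The median over the 6476 genes compared in that setting was -0.97. In the wells Nr4a1 was at 0.45. Of the 20 measured factors in that list, 3 were past the fold toward CD4 and 10 toward CD8 in all cells, where 1.71% and 27.8% of the 8790 genes were. In matched cells the counts were 7 and 4, and in all views 2 and 2, with a median of -0.78 in all cells and 0.00 in matched cells. Among 18 naive and memory genes, 5 were past the fold toward CD4 and 2 toward CD8, and 2 and 1 were so in all views, with a median of 0.32. The all-cell background is again 1.71% and 27.8%, so the CD8 count is not above it. In all views the background is 1.01% and 1.05%. In matched cells the counts were 2 and 4 and the median -0.17, and between the KO-labelled plates the median was -0.90.

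The difference in genes of the proliferating cell depended on which cells were compared. Of 42 measured cell cycle genes, 38 were past the fold toward CD8 and 0 toward CD4 in all cells, where 27.8% of the 8790 genes were toward CD8, and 1 was so in all views. This was Dut, which keeps uracil out of DNA, at -3.44. The median was -1.87 in all cells, 0.08 in matched cells, -0.15 without cycling cells and -0.32 in the wells. In the wells 10 of the 42 were past the fold toward CD8 and 1 toward CD4, beside 12.2% and 13% of the 8790 genes. Matching evened both gene number and the share of cycling cells, so their parts cannot be told apart. Mcm5, a subunit of the replicative helicase, was detected in 11.4% of CD4 and 55.6% of CD8 cells, yet differed by -0.43 in matched cells. Cells with at least 3 of 7 cycling genes made up 7 of 79 CD4 cells (8.86%, 3.64 to 17.4) and 30 of 72 CD8 cells (41.7%, 30.2 to 53.9). In the matched cells they were 7 of 36 on both sides. All 7 cycling CD4 cells were among the 27 with Foxp3 (25.9%, 11.1 to 46.3). Among the 52 without, 0 were cycling, which allows up to 5.77%. Cells with Foxp3 also showed more genes, with a median of 2404 against 1891, and the part of this in the share was not tested. With cycling cells left out of both plates, all 83 and all 92 genes kept their direction, and 74 and 71 were past the fold. The genes were chosen in cells that include these, so the kept direction was largely set beforehand and is no separate check.

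Energy metabolism and protein turnover followed the same course. The all-cell background was again 27.8% of the 8790 genes past the fold toward CD8 and 1.71% toward CD4. Of 85 measured nuclear genes of oxidative phosphorylation, 71 were past the fold toward CD8 and 0 toward CD4 in all cells, but none in all views, and the median was -1.70 against -0.10 in matched cells and -0.15 in the wells. Ndufb10, a subunit of complex I, was at -3.35 in all cells, -2.39 in matched cells and 0.05 in the wells. For 38 proteasome genes the count was 30 and 0, and the median -1.68 against 0.14. Glycolysis genes were mixed: Ldha was higher in CD4 by 0.84 and by 2.78 in matched cells, and Pgam1 was lower by 3.24 and by 0.82. In FPKM over all kept cells Ldha was the lower in CD4, with means of 2023 and 2956 and medians of 1555 and 1966. The median of 19 genes was -0.48 in all cells, 0.49 in matched cells and 0.24 in the wells. In matched cells 8 of the 19 were past the fold toward CD4 and 0 toward CD8, where 8.01% and 5.23% of the 8790 genes were. For 81 cytosolic ribosomal proteins the median was -0.14. The T cell receptor list (22 genes) had a median of -0.27 in all cells and 0.43 in matched cells, with Cd5, an inhibitor of receptor signalling, highest at 1.81 and at 4.17 in matched cells, and Thy1 lowest at -2.89 and at -0.47 in the wells.

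**Figure D4:**
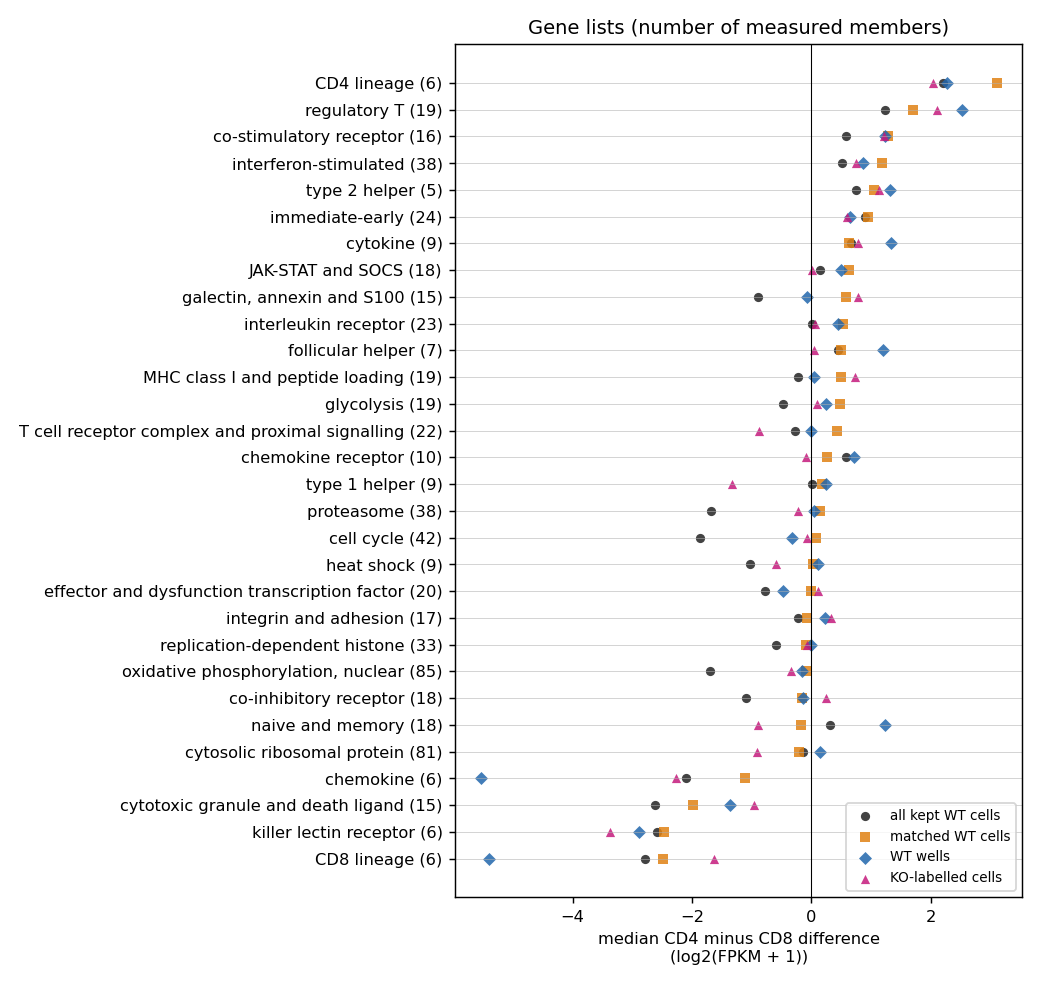
Median CD4 minus CD8 difference of each gene list with at least 5 measured members, on the log2(FPKM + 1) scale, in all kept WT cells, matched WT cells, WT wells and KO-labelled cells. CD8 lineage, killer lectin, cytotoxic, chemokine and oxidative phosphorylation lists are below 0 in all 4. CD4 lineage, regulatory T, co-stimulatory, cytokine and type 2 helper lists are above 0 in all 4. So are the follicular helper, interleukin receptor, JAK-STAT and SOCS, immediate-early and interferon-stimulated lists. Cell cycle, oxidative phosphorylation and proteasome lists lie below -1.5 in all kept cells only.

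Several of the genes highest in CD4 cells lie outside these lists. Malat1, a nuclear long noncoding RNA, was detected in 100% of CD4 and 91.7% of CD8 cells, at medians of 1465 and 335.2 FPKM, and differed by 2.70 in all cells and by 1.55 in matched cells. Ass1, which makes argininosuccinate, differed by 2.73, and Gm5424, annotated as a processed pseudogene, by 3.13. Of the 31-base words of Gm5424, 84.7% also occur in Ass1 transcripts, so how their reads were shared is uncertain, and Ass1 was at 0.13 in the wells where Gm5424 was at 3.25. Gm12505, a long intergenic noncoding RNA, was detected in 89.9% and 44.4% of cells and differed by 2.94. On the CD8 side, Plek, a signalling protein of blood cells, was at 8.86% and 59.7% with -4.24, and Ctsw, a protease of cytotoxic cells, at 36.7% and 81.9% with -4.33.

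**Figure D5:**
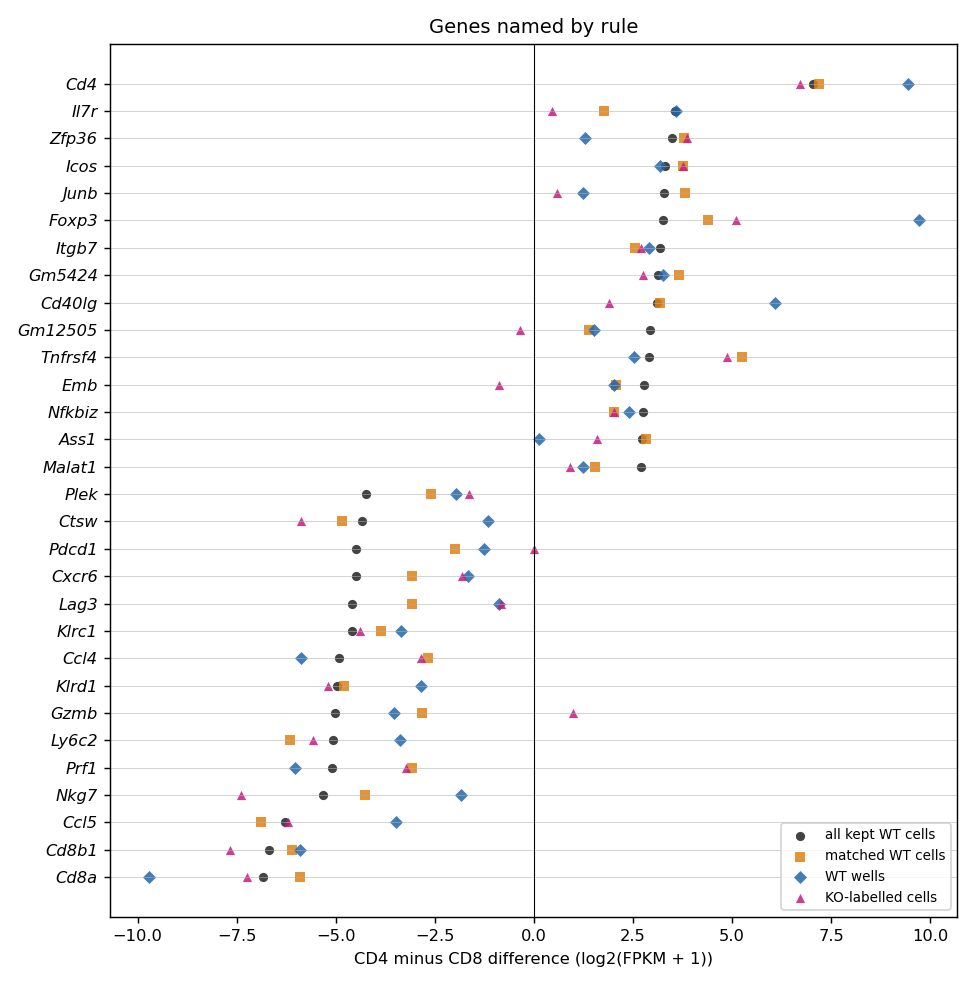
The 15 genes highest and the 15 lowest in CD4 minus CD8 by the rule stated in the methods, with their difference on the log2(FPKM + 1) scale in 4 views. Gzmb, Emb and Gm12505 change sign between the WT and the KO-labelled cells, and Pdcd1 lies near 0 in the latter.

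The KO-labelled plates, which share no library with the WT ones, gave the same lineage comparison a second time, under another genotype label. Their CD8 cells had a median of 2507.5 genes and their CD4 cells 2218, closer than in WT, and cycling cells were 7 of 80 and 5 of 73. Foxp3 was detected in 57.5% of their CD4 cells against 34.2% in WT, so the CD4 groups differed in make-up. Over the 6524 genes, 3.42% were past the fold toward CD4 and 8.69% toward CD8. Of the 83 genes, 69 had the same direction there and 55 were past the fold, with 0 past it the other way. Between the KO-labelled wells the counts were 75, 50 and 1. For comparison, 421 of all 843 compared genes above 0 in WT cells were above 0 in KO-labelled ones. Of the 92 genes, 87 had the same direction and 47 were past the fold, beside 3778 of 5681 for all genes below 0, and between the wells the counts were 79 and 58. In the cells, Uap1, an enzyme of sugar nucleotide synthesis, was the 1 gene of the 92 past the fold the other way, at -1.26 in WT and 1.03, but it was at -1.44 between the KO-labelled wells. The coreceptor genes had values near those of WT, with Cd4 at 6.71, Cd8a at -7.23 and Cd8b1 at -7.66 on the KO-labelled plates. Runx3 was at -0.59 there against -3.15 in WT, and Eomes at -0.88 against -2.42. Nkg7 and Ccl5 were at -7.39 and -6.21. Gzmb was at 1.00 there against -5.01 in WT, and Junb at 0.60 against 3.29. Emb was at -0.89, Gm12505 at -0.36 and Lag3 at -0.83. Prf1 and Ccl4 were at -3.21 and -2.85. Differences between the WT and the KO-labelled plates in these values were not tested.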

How the data were processed

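Single-cell and well libraries of 2 WT plates were compared, with 2 KO-labelled plates beside them. The deposited values are FPKM, to which the authors applied TMM scaling, per the labels. RSEM, Bowtie and the mm10 genome are named without versions in the submitters' processing notes. The table holds 23420 gene symbols and 380 libraries, and 21777 symbols were placed with GENCODE M21. Read totals were not used here. Gene numbers stand in for depth.

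Computed here, with Python 3.11.15, pandas 2.3.3 and numpy 2.4.6: cells with at least 1000 genes above FPKM 1, mean log2(FPKM + 1) per lineage (pseudocount 1), and CD4 minus CD8. Compared genes were above FPKM 1 in at least 20% of kept cells of either lineage, and list members in 10%. Cells were paired 1 to 1 within 10% of genes detected. Shares carry exact Clopper-Pearson 95% intervals (scipy 1.17.1), and a share of 0 the limit that 3 cells set. With 1 plate per lineage and cells that are not replicates, no test was run. The difference and the pairing were tested on simulated data.

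Named are 6 markers, the 15 highest and 15 lowest compared genes with the same sign in matched cells and wells, up to 2 highest and 2 lowest members per list, and genes of the background; 1 list member is not reported here. Ccl3, Folr4, Il27ra, Il2ra, Klrc2, Klrk1, Uap1 and Xcl1 were named after their values were seen. The members and lists were chosen with earlier results of these data known. The count of genes past the fold in all 3 views was adopted after the all-cell split was seen to move with the number of genes detected. Alternatives covered the cell filter, gene filter, pseudocount, scaling, matching, cycling cells, Foxp3 and cells with markers of another type.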

Additional observations from a re-analysis of the deposited data

How the results depend on the processing

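Counts past the fold depended on how cells were chosen and scaled, and lineages cannot be separated from plates. In the main setting 2.16% of 6524 compared genes were higher in CD4, 37.2% higher in CD8 and the median was -0.764. With all 94 cells of each plate, 21.9% were higher in CD8 and the median was -0.527. In cells matched on genes detected the values were 9.50%, 6.85% and -0.013, and without cells above 4000 genes 8.55%, 10.6% and -0.208. A pseudocount of 0.1 gave 58.9% higher in CD8 and a median of -1.244, and one of 10 gave 1.10%, 11.4% and -0.339 in cells and 5.81% and 5.27% in the wells. The log2 ratio of mean FPKM gave 6.44%, 19.5% and -0.289. Rescaling each cell to 1 sum gave 3.30% higher in CD4. Genes in at least 50% of cells gave 3.85%, 50.9% and -1.024 (2210 genes), and all genes above FPKM 1 in any kept cell a median of -0.191 (14463 genes). Without cycling cells the values were 7.38%, 12.7% and -0.294. With Foxp3-undetected CD4 cells only the median was -0.971.

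The genes past the fold in all 3 views, 1.27% toward CD4 and 1.41% toward CD8, were recomputed under alternatives chosen after seeing the data. The CD8 share was 1.08% with all 94 cells, 2.77% at a pseudocount of 0.1, 0.521% at 10 and 5.95% without the wells. The CD4 share was 0.720% at a pseudocount of 10 and 0.618% with Foxp3-undetected CD4 cells only.

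Among list medians and named genes past the fold in all kept cells, signs turned in these cases, and the cause was not tested. In matched cells the list medians were 0.083 for cell cycle, 0.024 for heat shock and 0.137 for the proteasome, and Il10ra was at 0.01. The heat shock median was 0.059 without cells above 4000 genes and 0.667 without cycling cells. With Foxp3-undetected CD4 cells only, the regulatory T median was -0.234, Ctla4 -0.761 and Il2ra -0.266, beside a median of -0.971 over all compared genes. As log2 ratio of mean FPKM, Ly6c1 was at 0.433. On the plates labelled KO, the co-inhibitory median was 0.245, Gm12505 was at -0.357, Emb at -0.888, Gzmb at 0.998, Ccr7 at -1.856, Cd48 at 0.787, Cxcr3 at -0.413, Havcr2 at 0.18, Il10ra at 1.552, Mcm5 at 0.069 and Uap1 at 1.03. List medians within the fold turned more often: of 19 such lists, 5 turned in matched cells, 5 with Foxp3-undetected CD4 cells only, 8 on the plates labelled KO and 0 to 5 under each other setting. In matched cells these were galectin, annexin and S100 (-0.90 to 0.58), glycolysis, MHC class I, T cell receptor, and naive and memory. With Foxp3-undetected CD4 cells the chemokine receptor median was -0.40 and the co-stimulatory -0.19.

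No paired analysis was possible because the code that both plates share, WT4, gives 1 plate per lineage, and no label pairs their cells.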
